A study of Mus musculus with 6 samples.

Results

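The C/EBP family and the other transcription factors that set the myeloid programme were followed in LSK cells with and without Setd1b: Cebpa, Cebpb, Cebpd, Cebpe, Cebpg, Spi1, Gfi1 and Irf8. These 8 genes were chosen by name out of 45706 genes in the count table, with earlier results of these data known. LSK cells are the bone marrow fraction that lacks lineage markers and carries Sca-1 and Kit, and they hold the haematopoietic stem cells and the multipotent progenitors. Total RNA of this fraction was sequenced from 6 male C57BL/6 mice, with 1 library per mouse.

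The 3 Ctrl mice (AI03, AI54 and AI56) were heterozygous for the conditional Setd1b allele (FD/+; RC/+, called HET) and the 3 cKO mice (AI02, AI55 and AH74) were homozygous for it (FD/FD; RC/+, called HOM). Both genotypes carried 1 copy of the Rosa26-Cre-ERT2 transgene (RC), and all mice received 4.5 mg tamoxifen a day by gavage for 4 days and, after 3 days without it, for 2 more days, as the labels give it (the study's methods state another number of doses). Marrow was taken 3 days after the last dose, at 16 weeks of age in 5 mice and at 17 weeks in cKO mouse AH74. The Cre is induced in nearly all tissues and removes exon 5, which shifts the reading frame, so Ctrl cells had also recombined 1 allele and the cells around the LSK compartment were recombined too. The table counts reads over whole genes, and Setd1b stood at 221, 194 and 223 CPM (counts scaled to library size) in the Ctrl libraries and at 272, 288 and 314 in the cKO libraries, a log2 fold change of 0.46 (SE 0.073, adjusted p = 0.0015). This count goes against the direction of a deletion, and since it pools all exons it does not check the loss of exon 5, so each direction given here is that of the libraries labelled cKO.

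C/EBP proteins are basic leucine zipper factors that bind DNA as dimers. C/EBP alpha, encoded by Cebpa, is required for the step from multipotent progenitor to granulocyte and monocyte progenitor, C/EBP beta acts when granulocyte production is raised in an emergency, C/EBP delta is induced by inflammatory signals, C/EBP epsilon drives late granulocyte differentiation, and C/EBP gamma lacks a strong activation domain and can hold its partners in dimers. PU.1, an ETS factor encoded by Spi1, opens the myeloid and B cell programmes, Gfi1 is a zinc finger repressor that favours granulocytes, and IRF8 is an interferon regulatory factor that favours monocytes and dendritic cells and often binds DNA together with PU.1. Setd1b is a methyltransferase for histone H3 at promoters.

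The promoter windows of Cebpa and Irf8 are shown because these were the 2 factors that passed the test between genotypes, and that of Cebpg because it is the neighbour of Cebpa in the genome and in the family. Each is the stretch of 250 bases before the RefSeq start, 5′ to 3′ on the strand of the gene, from build GRCm38.p6: chr7:35119043-35119292 on the plus strand for Cebpa, chr8:120736108-120736357 on the plus strand for the first of 2 starts of Irf8, and chr7:35056567-35056816 on the minus strand for Cebpg. Capitals mark every match to the motifs searched.
Cebpa: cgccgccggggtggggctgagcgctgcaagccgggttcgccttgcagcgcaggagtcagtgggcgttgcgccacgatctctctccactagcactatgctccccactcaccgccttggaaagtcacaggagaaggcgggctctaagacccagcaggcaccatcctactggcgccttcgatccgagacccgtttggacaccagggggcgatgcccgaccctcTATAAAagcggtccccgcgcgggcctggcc
Irf8: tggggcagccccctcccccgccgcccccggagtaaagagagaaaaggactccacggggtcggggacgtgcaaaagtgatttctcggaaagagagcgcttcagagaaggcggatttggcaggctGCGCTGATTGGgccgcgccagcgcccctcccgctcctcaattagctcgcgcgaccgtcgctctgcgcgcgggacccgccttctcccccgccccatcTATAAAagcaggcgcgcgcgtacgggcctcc
Cebpg: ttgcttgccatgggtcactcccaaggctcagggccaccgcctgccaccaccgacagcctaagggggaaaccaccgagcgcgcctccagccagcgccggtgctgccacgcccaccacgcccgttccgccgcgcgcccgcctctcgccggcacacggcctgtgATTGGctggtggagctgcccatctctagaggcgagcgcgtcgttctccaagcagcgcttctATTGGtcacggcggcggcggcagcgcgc
The motifs, read on both strands, were TTGCNNAA for C/EBP, GAGGAAGT for PU.1, AATCANNGC for Gfi1, GAAANNGAA for IRF, CCAAT and TATAAA. Windows of Cebpa and Irf8 both held TATAAA, at positions -30 to -25 in Cebpa and -31 to -26 in Irf8, as did 12.4% of the 32851 windows in the RefSeq table. CCAAT lay on the reverse strand once in Irf8 (-121 to -117) and at 2 places in Cebpg (-89 to -85 and -28 to -24), and 33.8% of all windows held it. The Gfi1 letters, held by 2.87% of all windows, lay on the reverse strand in Irf8 (-127 to -119), where they overlap the CCAAT match, and no other matches overlapped. The C/EBP, PU.1 and IRF letters, held by 9.56%, 2.44% and 7.13% of all windows, were not in the 3 windows shown. Of the other factors in the RefSeq table, Gfi1 held TTGCTGAA at -143 to -136 of 1 of its 2 windows and Cebpb held no match. The ratio of observed to expected CpG was 0.80 in Cebpa, 1.03 in Irf8 and 0.94 in Cebpg, above 81.1%, 95.7% and 91.0% of all windows, whose median was 0.37. RefSeq windows of Cebpd, Cebpe and Spi1 were not used here.

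Depth ran from 13003573 to 21277519 counts per library, and 15184 genes passed the filter on low counts, the 8 factors among them. Library numbers in the table fall into 2 series, the first with Ctrl AI03 and cKO AI02 and AI55, the second with Ctrl AI54 and AI56 and cKO AH74. Of 8 markers of the LSK gate and of stem cells, Kit (452 to 440 CPM, Ctrl to cKO mean), Cd34 (430 to 432) and Flt3 (a log2 fold change of -0.31, adjusted p = 0.12) did not pass the test. Hlf (log2 fold change 0.07), Slamf1 (-0.01) and Ly6a (-0.23) did not pass either, and Procr (1.43) and Mecom (0.45) were higher. In a bulk library fewer cells that express a gene and less RNA of it per cell cannot be told apart.

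Both Cebpa and Irf8 fell in the cKO libraries, by 1.60-fold and 1.71-fold, while the other 6 factors did not pass the test. At an adjusted p under 0.05 in edgeR, 2 of 8 factors were lower, against 3.79% of all genes tested. Higher calls made up 3.88% of all genes and included none of the factors by edgeR or by DESeq2, nor at an unadjusted p under 0.05, where 4 factors were lower. Spi1 had the largest p of these 4 and ranked 3233 by p among the 15184 genes tested, with both directions together. Unadjusted calls were thus common among all genes. In 3 of 8 factors, Cebpa, Cebpe and Irf8, the groups did not overlap, as in 27.3% of all genes. The median log2 fold change was 0.00 over all genes.

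Cebpa read 93.8, 91.8 and 120 CPM in Ctrl mice AI03, AI54 and AI56 and 61.8, 62.6 and 66.8 CPM in cKO mice AI02, AI55 and AH74. The lowest Ctrl library lay well above the highest cKO library, and the cKO libraries lay close together while Ctrl AI56 stood above the other Ctrl libraries. The group means were 102 ± 16.0 CPM in Ctrl and 63.8 ± 2.71 CPM in cKO (SD over 3 mice), which gave a log2 fold change of -0.68 (SE 0.096, adjusted p = 0.00052), and its rank by size of fold among the 575 lowered genes was 217. Within the first library series the difference was -0.59 and within the second -0.65. The exact permutation test of these 6 values gave p = 0.1, the smallest value that 3 against 3 allows.

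Irf8 stood at 112, 102 and 90.4 CPM in the Ctrl mice and at 67.1, 63.6 and 46.8 CPM in the cKO mice, in the same order of libraries. Again no cKO library reached a Ctrl library, and cKO AH74, the mouse aged 17 weeks, was the lowest. From 101 ± 10.9 CPM the mean fell to 59.2 ± 10.9 CPM, a log2 fold change of -0.78 (SE 0.11, adjusted p = 0.00076). Differences within the library series were -0.78 and -1.03, and the second of them rests on AH74. Without AH74 the log2 fold change was -0.64 (adjusted p = 0.0017).

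Cebpe was the rarest of the factors, with 44, 49 and 49 counts in the Ctrl libraries and 16, 26 and 25 counts in the cKO libraries. That is 3.37, 2.34 and 3.14 CPM against 1.07, 1.65 and 1.75 CPM, so the groups did not overlap, but the gap between Ctrl AI54 and cKO AH74 was narrow. Its log2 fold change, -0.97 (SE 0.34), was the most negative of the 8, and it did not pass the test (adjusted p = 0.10). It was -1.26 within the first library series and -0.59 within the second.

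Cebpb, Cebpd and Cebpg gave differences near 0. Cebpg read 59.9, 57.0 and 59.6 CPM in the Ctrl mice and 55.6, 57.4 and 59.8 CPM in the cKO mice, with groups that interleave and the smallest SE of the family (log2 fold change -0.03, SE 0.076, adjusted p = 0.86). Cebpb read 23.3, 28.8 and 34.9 CPM against 29.0, 26.2 and 29.9 CPM, and all cKO values fell inside the Ctrl range (-0.04, SE 0.13, adjusted p = 0.91). For Cebpd the values were 9.03, 14.8 and 13.1 CPM against 13.7, 12.7 and 12.7 CPM, and Ctrl AI03 was low for this gene and for Cebpb (0.07, SE 0.17, adjusted p = 0.86). Differences of Cebpb and Cebpd pointed up within the first library series, to which AI03 belongs (0.24 and 0.54), and down within the second (-0.09 and -0.13).

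Spi1 read 88.6, 105 and 109 CPM in the Ctrl mice and 92.8, 92.2 and 80.7 CPM in the cKO mice. Ctrl AI03 lay below 2 of the 3 cKO libraries, and the difference of -0.19 (SE 0.086) did not pass the test (adjusted p = 0.20). It was 0.06 within the first library series and -0.41 within the second. Gfi1 read 30.6, 30.7 and 31.9 CPM against 26.9, 26.0 and 32.5 CPM: the Ctrl values lay close together and cKO AH74 stood above all of them (log2 fold change -0.13, SE 0.11, adjusted p = 0.53).

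**Figure D1:**
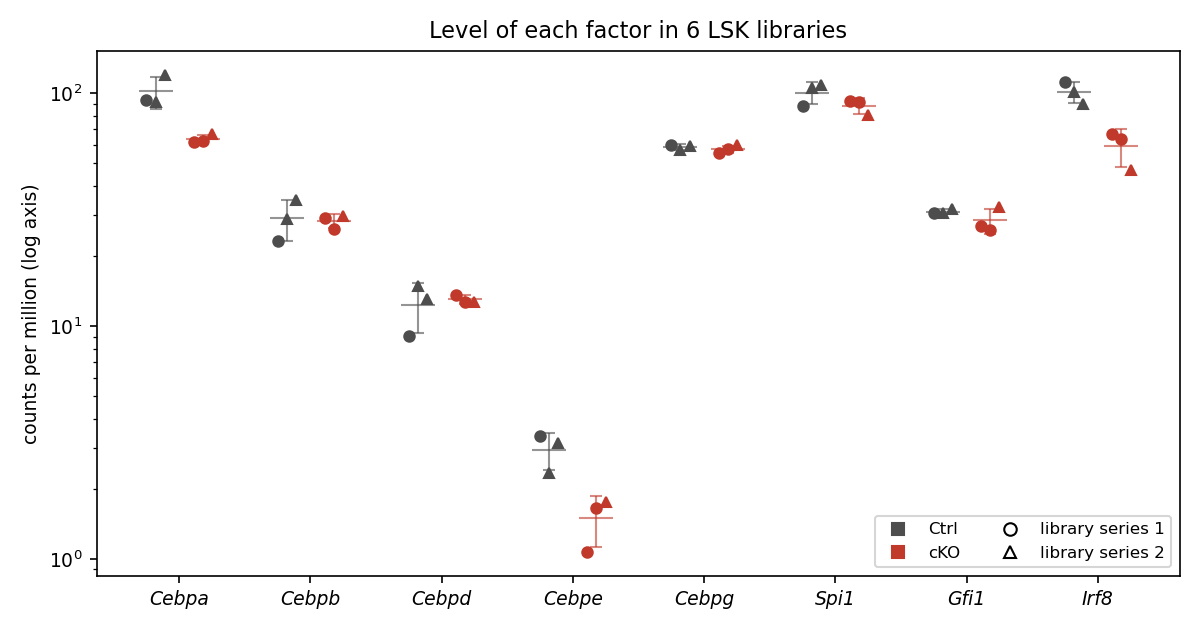
Level of each of the 8 factors in CPM on a log axis in the 3 Ctrl libraries (grey) and 3 cKO libraries (red), circles for the first library series and triangles for the second, with the mean (dash) and SD (bars). Cebpa, Cebpe and Irf8 are the 3 genes whose red and grey points do not overlap.

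**Figure D2:**
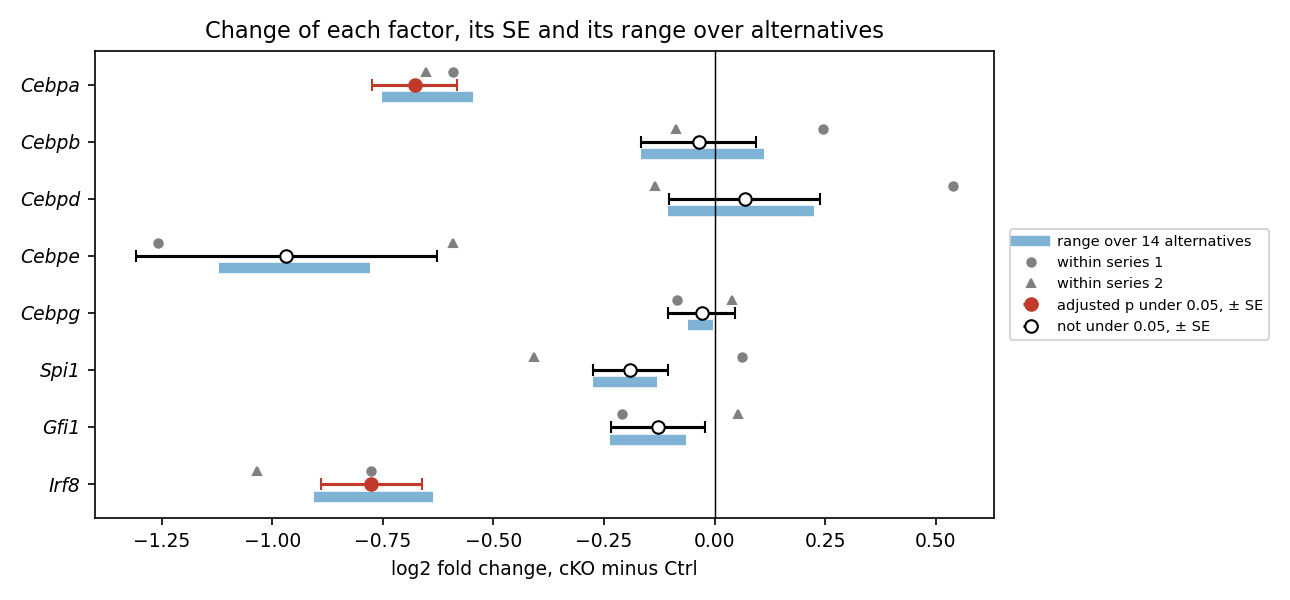
Log2 fold change, cKO minus Ctrl, of each factor with its SE from edgeR, red and filled where the adjusted p was under 0.05, the range over 14 alternative analyses (blue bars), and the differences within the first (grey circles) and second (grey triangles) library series. Cebpa ranged from -0.75 to -0.55 and Irf8 from -0.90 to -0.64 over the alternatives, and the points of Cebpb, Cebpd, Cebpg, Spi1 and Gfi1 within the series lie on both sides of 0.

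Levels of different genes were compared per kilobase of exon (CPM per kb). In Ctrl LSK cells Cebpa (38.7 CPM per kb) and Spi1 (37.5) had the highest levels and their ranges overlapped. Cebpb (19.3) and Irf8 (14.4) followed, with ranges that overlapped each other, then Cebpg (11.9), Cebpd (10.4) and Gfi1 (9.57), of which Cebpd overlapped both others, and Cebpe (2.38) last. In the cKO libraries Spi1 (32.9) stood above Cebpa (24.2) with no overlap, then came Cebpb (18.9), Cebpg (11.7), Cebpd (11.04), Gfi1 (8.77), Irf8 (8.39) and Cebpe (1.21). The ranges of Cebpg and Cebpd and those of Gfi1 and Irf8 overlapped. On this scale Irf8 held the fourth place in Ctrl and the seventh in cKO, and Cebpa moved from the first place to the second. The places depend on the length used, which pools all annotated exons of a gene (7055 bases for Irf8 and 2634 for Cebpa). In CPM without length the Ctrl means of Cebpa (102), Irf8 (101) and Spi1 (101) lay close together.

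Cebpa made up the largest part of the C/EBP level in each of the 6 libraries, and a smaller part in cKO than in Ctrl. Its share of the summed CPM per kb of the 5 C/EBP genes was 48.4%, 43.6% and 48.3% in the Ctrl libraries and 35.3%, 36.6% and 36.5% in the cKO libraries. The mean share moved from 46.8% ± 2.77 to 36.1% ± 0.73. Cebpb took 23.2% ± 1.89 in Ctrl and 28.1% ± 1.145 in cKO, Cebpg 14.6% ± 1.88 and 17.4% ± 0.48, and Cebpe 2.91% ± 0.70 and 1.80% ± 0.43, none of them with overlap between groups (exact permutation p = 0.1 each, the smallest possible). Cebpd took 12.6% ± 2.76 and 16.5% ± 0.98, with overlap (exact permutation p = 0.2). Shares add to a whole, so a lower share of Cebpa raises the others even where their own level did not pass a test. The shares also depend on the length used, since in CPM without length the Ctrl mean of Cebpg (58.8) lay above that of Cebpb (29.0). The sum itself was 73.6, 80.0 and 94.7 CPM per kb in the Ctrl libraries and 66.5, 65.0 and 69.5 in the cKO libraries, without overlap (log2 ratio -0.31, exact permutation p = 0.1).

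**Figure D3:**
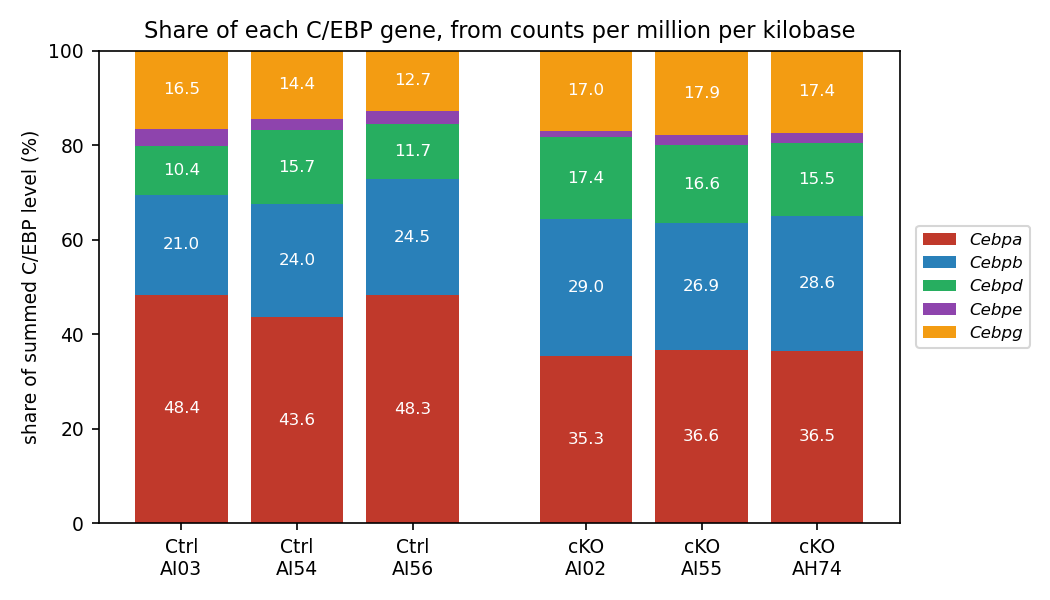
Share of each C/EBP gene, in percent of the summed CPM per kb of the 5 genes, for the 3 Ctrl libraries (left) and the 3 cKO libraries (right). The red part, Cebpa, spans 43.6% to 48.4% in Ctrl and 35.3% to 36.6% in cKO.

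The question whether the factors declined to different extents was put to the ratio of genes inside each library, where the scaling between libraries cancels. The log2 ratio of Cebpa to Cebpg was 1.55, 1.59 and 1.92 in the Ctrl libraries and 1.06, 1.03 and 1.07 in the cKO libraries, on the CPM per kb scale. That of Cebpa to Spi1 was 0.12, -0.17 and 0.18 against -0.55, -0.52 and -0.24, so Cebpa lay above Spi1 in 2 of 3 Ctrl libraries and below it in each cKO library. Irf8 to Cebpa, by contrast, gave ratios that interleave, with Cebpa over Irf8 at 1.16, 1.27 and 1.84 against 1.30, 1.40 and 1.94.

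Of all 28 pairs of factors, 15 had ratios that did not overlap between the genotypes, beside 25.9% of all 115269336 pairs of tested genes. These 15 were every pair of 1 of Cebpa, Cebpe and Irf8 with 1 of Cebpb, Cebpd, Cebpg, Spi1 and Gfi1, and the 13 pairs within either set all overlapped. The split into these sets was read from the values, and the pairs share genes, so they are not independent. Differences in log2 ratio across the sets ran from 0.48 for Spi1 over Cebpa to 1.04 for Cebpd over Cebpe.

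**Figure D4:**
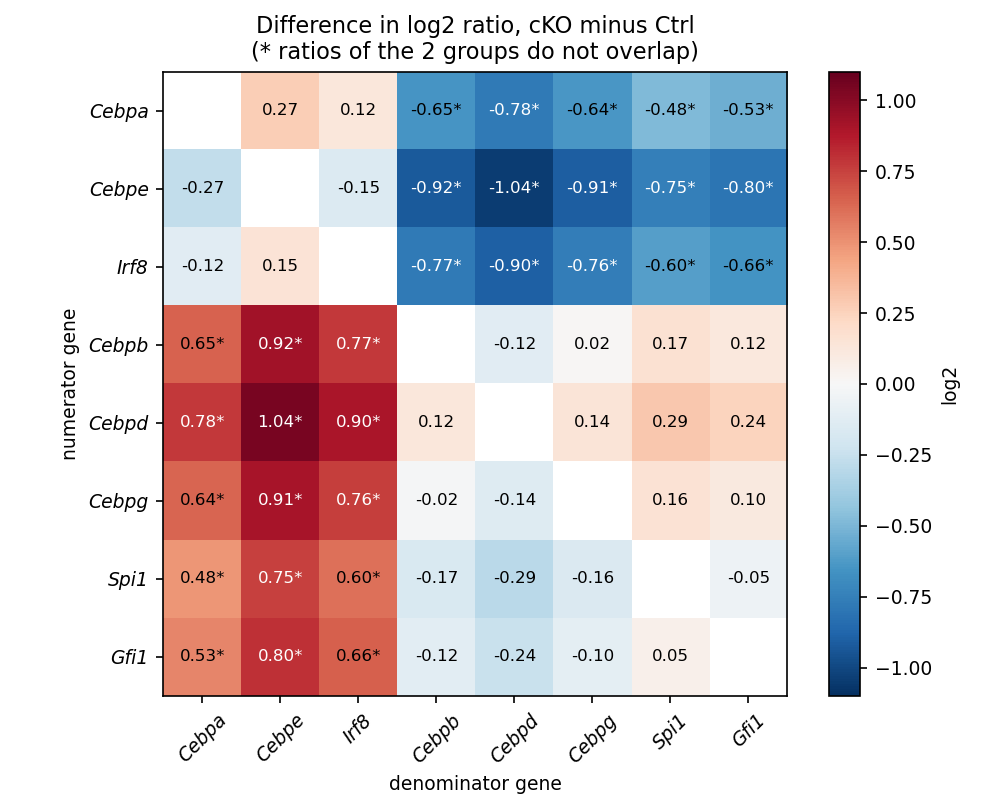
Difference between cKO and Ctrl in the mean log2 ratio of the row gene to the column gene, with red for a ratio that was higher in cKO, blue for one that was lower, and a star where the 3 Ctrl and 3 cKO ratios do not overlap. The stars fill the 15 pairs across the sets and leave the 13 pairs within the sets, whose differences lie between -0.29 and 0.29.

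A limma fit of each gene's log2 CPM minus that of Cebpa tested these differences against Cebpa. Cebpb (0.65, SE 0.18), Cebpd (0.78, SE 0.22), Cebpg (0.64, SE 0.17), Spi1 (0.48, SE 0.16) and Gfi1 (0.53, SE 0.18) were less lowered than Cebpa on the log2 scale, with adjusted p from 0.00035 for Cebpg to 0.0054 for Gfi1. That is 5 of 7 factors, but 77.9% of all 15183 genes were called less lowered than Cebpa and 0.843% more lowered, so the count of factors is near the background. Every one of these differences carries the error of Cebpa, which makes the moderated p-values too small. With each gene's own variance on 4 residual degrees of freedom, Cebpb (adjusted p = 0.026), Cebpg (0.027) and Gfi1 (0.046) passed in limma, and Cebpd (0.051) and Spi1 (0.052) did not. In that fit 8503 of the 15183 genes were called less lowered than Cebpa, so these calls do not set the factors apart from other genes. Irf8 differed from Cebpa by -0.12 (SE 0.16, adjusted p = 0.48) and Cebpe by -0.27 (SE 0.38, adjusted p = 0.50). The 95% intervals of these differences from the unmoderated fit, -0.92 to 0.67 for Irf8 and -0.93 to 0.39 for Cebpe, are wide, so an equal decline was not shown.

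Cebpa and Cebpg lie 62.8 kb apart on chromosome 7, with 2 other genes of the table between them, and only Cebpa passed the test. Cebpa covers positions 35119293 to 35121926 of chromosome 7 in mm10 as a single exon, and Cebpg covers 35046422 to 35056503 in 3 exons on the other strand. On the far side of Cebpa the nearest tested gene, Gpatch1, differed by -0.02, and on the far side of Cebpg Pepd, a dipeptidase gene, differed by -0.17 (adjusted p = 0.30). Irf8, which covers positions 120736358 to 120756694 of chromosome 8, lies between Cox4i1 (-0.25, adjusted p = 0.033), a subunit gene of cytochrome oxidase, and Mthfsd (-0.18, adjusted p = 0.37). Beside Cebpe, the amino acid transporter gene Slc7a8 was higher (0.57, adjusted p = 0.0080) and 1700123O20Rik differed by -0.09. The nearest tested genes of Spi1 (Slc39a13 0.52, adjusted p = 0.084, and Mybpc3 -0.17), Gfi1 (Evi5 0.35, adjusted p = 0.082, and Gm26692 0.35), Cebpd (Spidr -0.13 and Mzt2 0.13) and Cebpb (Ube2v1 0.12 and Gm14321 0.23) did not pass.

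Genes whose log2 CPM followed a called factor most closely over the 6 libraries were Aldoa (Pearson r = 0.997), Bag1 (0.997) and Hdgf (0.997) for Cebpa, and Mbd2 (0.995), Prg2 (0.995) and Med17 (0.992) for Irf8, out of 14290 genes of at least 1 CPM on average. All points share the genotype split and the library scaling, so the values describe these libraries only.

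Among 9 partners and regulators of the C/EBP proteins, 8 were tested, and Trib2 alone was lower, beside 3.79% lower over all genes tested. Trib2 encodes a pseudokinase known to drive the breakdown of C/EBP alpha protein, and it went from 17.0 to 4.24 CPM (log2 fold change -1.99, SE 0.22, adjusted p = 6.0e-05), further than Cebpa itself. Its relatives Trib1 (0.14) and Trib3 (1.54, adjusted p = 0.057) and the dimer partners Atf4 (135 to 125 CPM) and Batf (16.5 to 18.3 CPM) did not pass. The median of the 8 was 0.14.

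Of 18 relatives of PU.1, Gfi1 and IRF8 in the ETS, GFI and IRF families, 17 were tested and 3, of the ETS and IRF families, were higher: Ets2 (0.67, adjusted p = 0.00066), Fli1 (0.33, adjusted p = 0.0048), an ETS factor of stem cells, and Irf7 (0.42, adjusted p = 0.0058), an interferon regulator. Gfi1b, the relative of Gfi1, differed by -0.37 (39.3 to 30.5 CPM, adjusted p = 0.14) and did not pass. Lower calls numbered 0 by edgeR and 0 by DESeq2, and 2 at an unadjusted p under 0.05. The abundant Etv6 (483 to 441 CPM) and Elf1 (364 to 374 CPM) did not pass, and the median was 0.04. Higher calls made up 3.88% of all genes tested.

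Of 14 regulators that act on the factors in progenitors, all tested, 1 was higher, Stat3 (0.44, adjusted p = 0.00055), the transcription factor downstream of the G-CSF receptor. Lower calls were 0 by edgeR and 0 by DESeq2, with 1 at an unadjusted p under 0.05. Runx1, a known regulator of Spi1 and Cebpa, differed by -0.03 (289 to 283 CPM), Myb by -0.08 (979 to 928 CPM) and Cux1 by -0.09 (588 to 551 CPM). The median was -0.04, and 3.88% of all genes tested were called higher.

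Of 15 monocyte and dendritic cell transcription factors, 13 were tested and 2 were lower: Zbtb46, a marker factor of classical dendritic cells (3.21 to 1.23 CPM, log2 fold change -1.37, adjusted p = 0.025), and Zeb2 (370 to 312 CPM, -0.24, adjusted p = 0.028). Zeb2 lost its call without any 1 of the libraries AI03, AI56, AI02, AI55 and AH74 (adjusted p from 0.060 to 0.093), and Zbtb46 without AI03, AI56, AI55 or AH74 (0.061 to 0.11). Tcf4 (145 to 143 CPM) and Nab2 (15.7 to 20.0 CPM) did not pass, and the median was -0.01. Among all genes tested 3.79% were called lower. All 5 genes of the Gfi1 corepressor complexes were tested and none passed in edgeR or DESeq2, nor at an unadjusted p under 0.05 (Ehmt2 178 to 178 CPM and Hdac2 136 to 127 CPM, median -0.08).

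Mpo, Elane, Prtn3 and Ctsg are genes of the primary granule, activated by C/EBP alpha together with Myb and other factors at the promyelocyte stage. Their list, which also holds Ms4a3, had the most negative median of the 11 pathway lists. All 5 were lower, with a median of -1.69, beside 3.79% lower over all genes. This list was fixed with earlier results of these data known, so the count is a description and not independent support. Mpo, the myeloperoxidase gene, went from 2668 ± 329.9 to 360 ± 97.5 CPM (log2 fold change -2.89, adjusted p = 1.6e-08), Elane, the neutrophil elastase gene, from 96.0 ± 8.57 to 18.5 ± 5.15 (-2.37), Ctsg from 238 to 98.5 (-1.27), Ms4a3 from 38.9 to 12.1 (-1.69) and the proteinase gene Prtn3 from 152 to 103 (-0.56, adjusted p = 0.011). Prtn3 lost its call with DESeq2 (adjusted p = 0.066) and in edgeR without AI55 (0.079) or AH74 (0.057). On the log2 scale the changes of Mpo and Elane were larger than those of any of the 8 factors, a comparison for which no test was run. Of 8 secondary granule genes, which C/EBP epsilon activates, only Lyz2 (84.2 to 71.7 CPM, log2 fold change -0.23) and Lcn2 (4.19 to 3.14 CPM, -0.44) were abundant enough to test, and calls numbered 0 by edgeR and 0 by DESeq2, with 1 at an unadjusted p under 0.05. The other 6, Ltf, Camp, Ngp, Mmp8, Cd177 and Chil3, had at most 45 counts summed over the 6 libraries.

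Receptors of the myeloid cytokines moved in both directions. Of 8 genes, 7 were tested: Csf1r, the M-CSF receptor gene (28.9 to 17.8 CPM, log2 fold change -0.70, adjusted p = 0.0086), and Csf3r, the G-CSF receptor gene (103 to 81.7 CPM, -0.33, adjusted p = 0.033), were lower, and Csf2rb2, the mouse-specific beta chain of the IL-3 receptor, was higher (13.8 to 33.0 CPM, 1.24, adjusted p = 0.00023). Csf3r lost its call with the library series as a covariate (adjusted p = 0.059) and without AI56 (0.15), AI55 (0.17) or AH74 (0.064). Csf2rb2 shares most of its sequence with Csf2rb (83.0 to 99.97 CPM, not passing), and reads were counted only where they mapped to 1 place. The median over the 7 was -0.03, and among all genes tested 3.79% were called lower and 3.88% higher.

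PU.1 targets gave 2 lower and 1 higher call among 10 tested of 11, beside 3.79% lower and 3.88% higher over all genes. Ncf1, a subunit gene of the phagocyte oxidase, went from 99.7 ± 2.41 to 52.0 ± 7.92 CPM (-0.94, adjusted p = 2.2e-05), while its partner gene Ncf4 (28.1 to 26.6 CPM) did not pass. Ly86 (-1.13, adjusted p = 0.030) was lower and Itgam, the CD11b gene (0.43, adjusted p = 0.019), was higher. Ly86 lost its call without AI03 (adjusted p = 0.11), AI02 (0.067), AI55 (0.072) or AH74 (0.11), and Itgam without AI03 (0.055), AI54 (0.052), AI02 (0.10) or AI55 (0.064). Btk (96.3 to 91.5 CPM) did not pass, and the median was -0.12.

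Of 7 IRF8 targets, all tested, Ctss, a lysosomal protease gene, was higher (38.9 to 48.9 CPM, 0.33, adjusted p = 0.042), the opposite direction to Irf8, and this call was lost with the library series as a covariate (adjusted p = 0.082) and without AI03 (0.061), AI56 (0.17), AI02 (0.12) or AI55 (0.16). Cst3 (145 to 132 CPM) and Cd74 (20.1 to 16.6 CPM) did not pass, and the median was -0.14. Higher calls made up 3.88% of all genes tested. Blnk, an adaptor gene of B cell receptor signalling, named after its values were seen, differed by 0.98 (5.43 to 10.8 CPM, adjusted p = 0.052) and did not pass. DESeq2 called 2 of the 7 higher, and at an unadjusted p under 0.05 edgeR had 2 higher and 1 lower. Lower calls were 0 by edgeR and 0 by DESeq2. Among 9 genes that Gfi1 represses, 8 were tested, with a median of 0.03, and the most abundant that did not pass were Meis1 (227 to 231 CPM) and Hoxa9 (42.4 to 43.7 CPM).

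**Figure D5:**
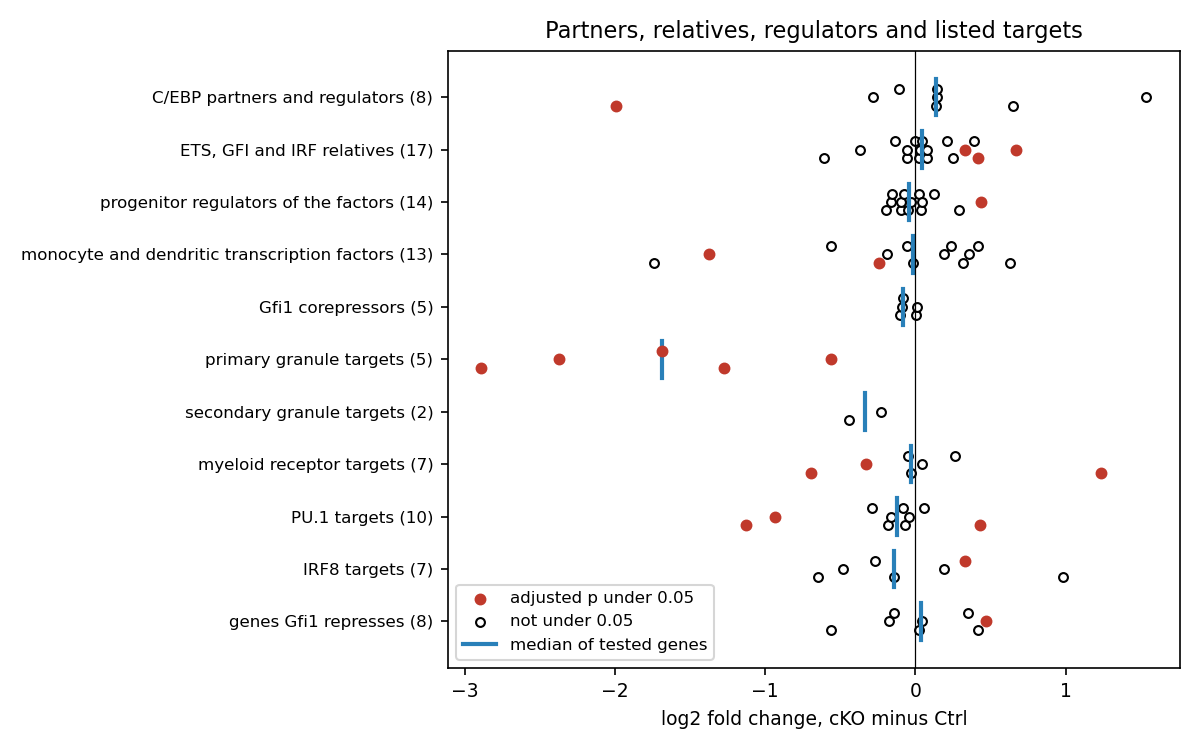
Log2 fold change, cKO minus Ctrl, of the tested genes in each of 11 lists (number tested in brackets), red where edgeR's adjusted p was under 0.05, with the list's median as a blue line. The genes of the primary granule list lie entirely to the left of 0 with a median of -1.69, while the medians of the other lists lie between -0.34 and 0.14.

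Marker lists of other blood cells also held lower genes, with the exception of the B cell list, beside 3.79% lower over all genes tested. Of 10 monocyte and macrophage markers, 4 of 8 tested were lower, Ccr2 (-2.05), Ly6c2 (-1.56), Cx3cr1 (-1.41) and Cd68 (-0.60), and the list summed to 90.0 to 128 CPM in Ctrl and 33.7 to 48.6 CPM in cKO, with Marco at most 4 counts over all libraries. The macrophage genes Adgre1 (0.98), C1qa (-0.06), C1qb (-0.66) and C1qc (-0.55) were tested and did not pass. Mast cell and basophil markers summed to 55.0 to 62.4 CPM against 18.4 to 25.9 CPM, with Ms4a2, Prss34 and Cpa3 lower of 5. Mcpt8 of this list pointed up (0.15, 5.32 to 5.92 CPM) and Fcer1a down (-1.44), and neither passed. Eosinophil markers (2.82 to 10.1 against 0.28 to 1.21 CPM; Prg2 lower, 1 tested of 3) and dendritic cell markers (2.62 to 3.48 against 0.77 to 1.21 CPM; Clec9a lower, 2 tested of 5, Xcr1 and Cd209a at most 4 counts) were low in all libraries. Mature neutrophil markers were at 7.35 to 14.9 CPM against 4.63 to 8.17 CPM, S100a8 and S100a9 being lower among 3 tested of 8, and Camp, Retnlg and Mmp9 had at most 4 counts in all. Erythroid markers summed to 382 to 413 against 263 to 313 CPM (Klf1, Tfrc and Car2 lower, 4 tested of 6), megakaryocyte markers to 109 to 136 against 84.6 to 114 CPM (Pf4 lower, 4 tested of 5), T and NK cell markers to 46.2 to 61.6 against 28.8 to 37.0 CPM (Nkg7 lower, 3 tested of 7, Cd3e with 1 count in all), plasma cell markers to 80.2 to 95.1 against 71.2 to 87.7 CPM (Jchain lower, 3 tested of 4) and stromal markers to 7.96 to 11.97 against 3.44 to 4.70 CPM (Cxcl12 and Col1a2 lower, 2 tested of 5). The megakaryocyte genes Itga2b (-0.15), Gp1bb (-0.66) and Gp9 (0.22) were tested and did not pass. Sdc1 (0.20) and Xbp1 (-0.04) of the plasma cell list did not pass either. Neither did Cxcr2 (-0.32), Ccr9 (-1.56) and Hbb-bs (-0.37) of the neutrophil, dendritic cell and erythroid lists. In the T and NK cell list the other tested genes, Cd4 (0.81, adjusted p = 0.13 in edgeR) and Klrb1c (0.68, adjusted p = 0.47), pointed up without passing. The median of that list was 0.68, and Nkg7 (48.4 to 26.8 CPM) was its most abundant gene. B cell markers, at 15.4 to 20.0 against 17.2 to 20.97 CPM, gave no call in edgeR or DESeq2, nor at an unadjusted p under 0.05, among 2 tested of 6. Calls of S100a8, S100a9, Clec9a, Cd68 and Car2 were each lost when any 1 of at least 4 of the 6 libraries was left out, and those of Tfrc and Col1a2 without AI02. Several of these genes are also expressed by progenitors in the LSK gate, and the part of other cells in the lower Cebpa and Irf8 was not tested.

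Cebpb overlaps Tmem189 and Gfi1 overlaps A430072P03Rik on the opposite strand, and the reads were counted by strand. Irf8 overlaps Gm20388 on the same strand, which had 0 counts in all libraries.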

How the data were processed

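RNA was sequenced from LSK cells of 3 Ctrl and 3 cKO mice after total RNA amplification with a stranded kit. The counts were deposited by the authors as 1 table of whole reads per gene, not normalized; per the submitters' processing notes the tools were bcl2fastq 2.17.1.14, GSNAP and featureCounts 1.5.0 on mm10. Gene identifiers were named with GENCODE M21 (98.8% matched). Amplified reads are not independent molecules, so counting error is understated. Depth was 13003573 to 21277519 counts. Groups and mice were taken from the labels, and nothing in them gives a block or batch. The 2 library series follow the numbers of the libraries in the table's header.

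Genotypes were compared in R 4.3.3 with edgeR 4.0.16 (glmQLFit and glmQLFTest, TMM, filterByExpr, Benjamini-Hochberg over all genes), and changes relative to Cebpa with limma 3.58.1 on log2 CPM with a prior count of 2. Each p-value refers to the spread between mice. In the moderated limma fit relative to Cebpa that spread was the trend over all genes and not each gene's own. Single values were compared by the exact two-sided permutation test. All 8 factors were named, with the nearest tested genes, the 3 genes closest in pattern to each called factor, and of each of 11 pathway lists and 12 marker lists the called members and, for pathways, the 2 most abundant uncalled ones. Values of some listed genes are not reported here. The members and lists were chosen with earlier results of these data known. DESeq2 1.42.0, other factors and filters, a threshold of 0.01, the library series as covariate, a prior count of 0.5, shares from raw CPM and leaving out each mouse were the alternatives.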

Additional observations from a re-analysis of the deposited data

How the results depend on the processing

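Cebpa and Irf8 stayed lower past the threshold in each of 14 alternatives (adjusted p at most 0.0068 and 0.0046). Cebpe (-1.12 to -0.78, adjusted p at least 0.074) and Spi1 (-0.27 to -0.13, at least 0.058) were negative and missed it in each of them. Cebpb turned to 0.072 with the library series as a covariate and, with 1 mouse left out, ran from -0.17 to 0.11; Cebpd ran from -0.10 to 0.23. The change of Irf8 minus that of Cebpa ran from -0.33 to 0.073 with 1 mouse left out, and that of Spi1 from 0.41 to 0.59, missing the threshold without AI02 (adjusted p = 0.056) or AI55 (0.053) in limma. With unmoderated variance, an alternative added after the data were seen, Cebpd (0.78, adjusted p = 0.051) and Spi1 (0.48, 0.052) no longer passed, and 8503 of 15183 genes were less lowered than Cebpa in place of 11824. The lower calls over all genes numbered 873 with no filter on low counts and 272 at a threshold of 0.01, where 241 were higher. With 1 mouse left out they ran from 308 to 594 lower and 296 to 531 higher, the smallest without cKO AI55. Without AI56 they were 340 and 325, without AI02 390 higher and without AH74 345 higher. The cause of these shifts was not tested. Labels give no shared replicate numbers. Counts of Cebpe, at most 49 in a library, limit what could be detected for that gene.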
